A study of Arabidopsis thaliana with 9 samples.

Results

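The subject is a set of 22 long intergenic non-coding RNAs (lincRNAs) of Arabidopsis thaliana that gave more signal in both shoot organs studied, inflorescence and leaf, than in root, and about as much in inflorescence as in leaf. They were picked from the 4499 lincRNAs of a custom 1-colour array, which holds 5077 genes in all. A lincRNA was taken where its probe was well above background (the scanner software's own call of a spot brighter than its surroundings) on all 3 inflorescence arrays and on at least 2 leaf arrays, where its mean log2 signal in inflorescence and in leaf was each at least 1 above the root mean, and where inflorescence and leaf were less than 1 apart. A difference of 1 on the log2 scale is 2-fold. The means came from the authors' deposited value table, and each lincRNA was represented by its probe of highest mean across the 9 arrays. Since all 3 organ means and all 9 arrays entered this choice, the differences between organs given below describe the set, and no p-value of theirs is printed. Where members called by a test are counted below, nothing is read from the calls.

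Total RNA was taken from wild-type plants in 3 groups, with 3 biological replicates and 3 arrays per group. The growth protocol names Col-0 for all plants, whereas the ecotype labels count up from Col-0 to Col-8 over the 9 samples, and Col-0 is used here. The inflorescence group came from plants 4 weeks old, on solid half-strength MS medium or in a greenhouse, and held open and closed flowers with some siliques at an early stage. The leaf group and the root group came from plants 30 days old in hydroponic MGRL medium. The labels name no treatment, mutation or transgene for any group. Inflorescence therefore differs from root in culture and age as well as in organ, while leaf and root share both. Each sample is a whole organ, so that fewer cells carrying an RNA and less of that RNA per cell cannot be told apart.

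LincRNAs are transcripts that arise between annotated genes and carry no long open reading frame. In plants most are present at low levels, many appear in some organs and not in others, and the few with a known role act, for example, as decoys that bind a microRNA or as regulators of chromatin at a nearby gene. The lincRNAs described here carry the names of the array design, which give the chromosome and a running number along it, and no function is given for any of them in the sources used here. No probe or transcript sequence was available here.

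Of the 4499 lincRNAs, 1046 met the detection requirement in inflorescence and leaf. Among these, 98 were at least 1 above root in inflorescence, 135 in leaf and 61 in both. The 61 split into 33 with leaf at least 1 above inflorescence, 6 with inflorescence at least 1 above leaf, and the 22 within 1 of each other. The opposite pattern, root at least 1 above both shoot organs and these within 1 of each other, was found for 62 of the 1046, and 634 were within 1 of each other and of root. The median difference over all 1046 was -0.23 for inflorescence minus root and 0.04 for leaf minus root on the scaled signals used from here on, which places the set at one end of a distribution that has its middle near 0.

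**Figure D1:**
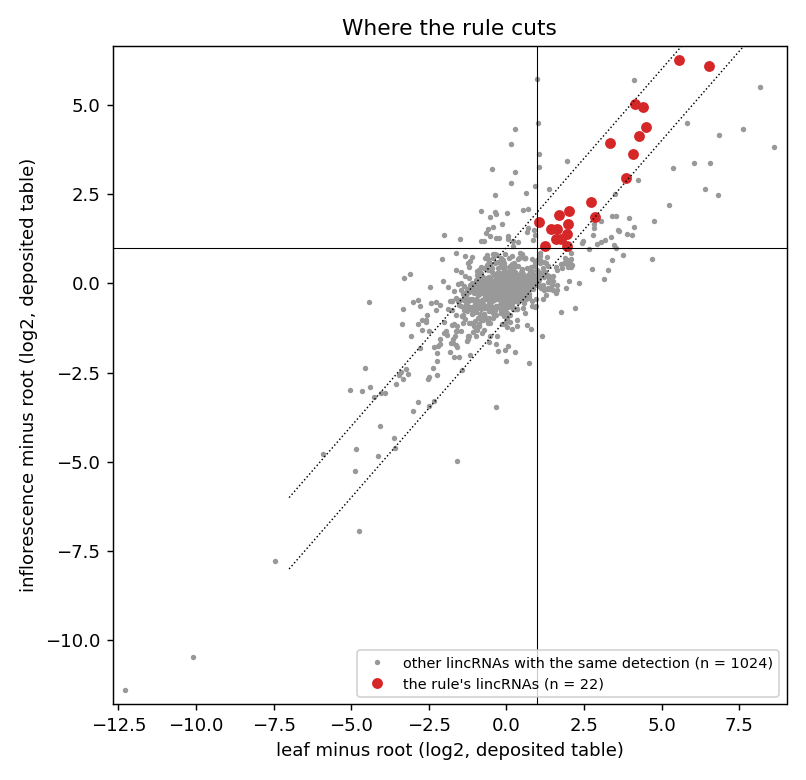
Leaf minus root (x axis) against inflorescence minus root (y axis), both log2 in the deposited table, for the 1046 lincRNAs with the required detection. The 22 chosen lincRNAs (red) lie in the upper right, inside the dotted lines that mark 1 on either side of equality, and the solid lines mark the threshold of 1.

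The choice rests on a threshold that cuts through a continuous range. The lincRNAs just inside it had a smaller difference to root of 1.04 (AT5TU018400), 1.05 (AT1TU077350) and 1.06 (AT4TU045600) in the deposited table. Just outside were AT3TU031930 at 0.93, AT2TU061760 at 0.90 and AT1TU049290 at 0.86, which met every other term. The set was also uneven within itself, with 11 lincRNAs whose smaller difference was at least 2, 8 at least 3 and 6 at least 4.

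The arrays differed in sensitivity. The share of probes well above background ran from 10.6% to 39.9%, lowest on leaf replicate 2, where the dimmest signal above background was -4.05 on the scaled log2 axis against -7.62 to -6.81 on the other arrays. Replicates 1 and 2 of each organ shared slide 1, replicate 3 lay on slide 2, and the median probe was -9.17 to -8.83 on slide 2 against -7.80 to -7.45 on slide 1 (-6.03 on leaf replicate 2). Of the 22 lincRNAs, 11 were well above background on leaf replicate 2, 8 on all 3 root arrays, 3 on 2 of them, 4 on 1 and 7 on none. None of 8 photosynthesis, 6 flower organ and 7 root marker genes is on the array, so the organs could not be checked against them. The number of arrays, 3 per organ, also limits the precision.

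Signals are given below as log2 of the scanner's processed signal minus the 75th percentile, on the same array, of the 1345 probes well above background on all 9 arrays. A value of 0 is thus the signal of a bright probe, and each unit is 2-fold. Probes bind with different strength, so signals are compared between organs for 1 probe and never between lincRNAs. Errors are standard deviations over the 3 arrays of an organ.

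**Figure D2:**
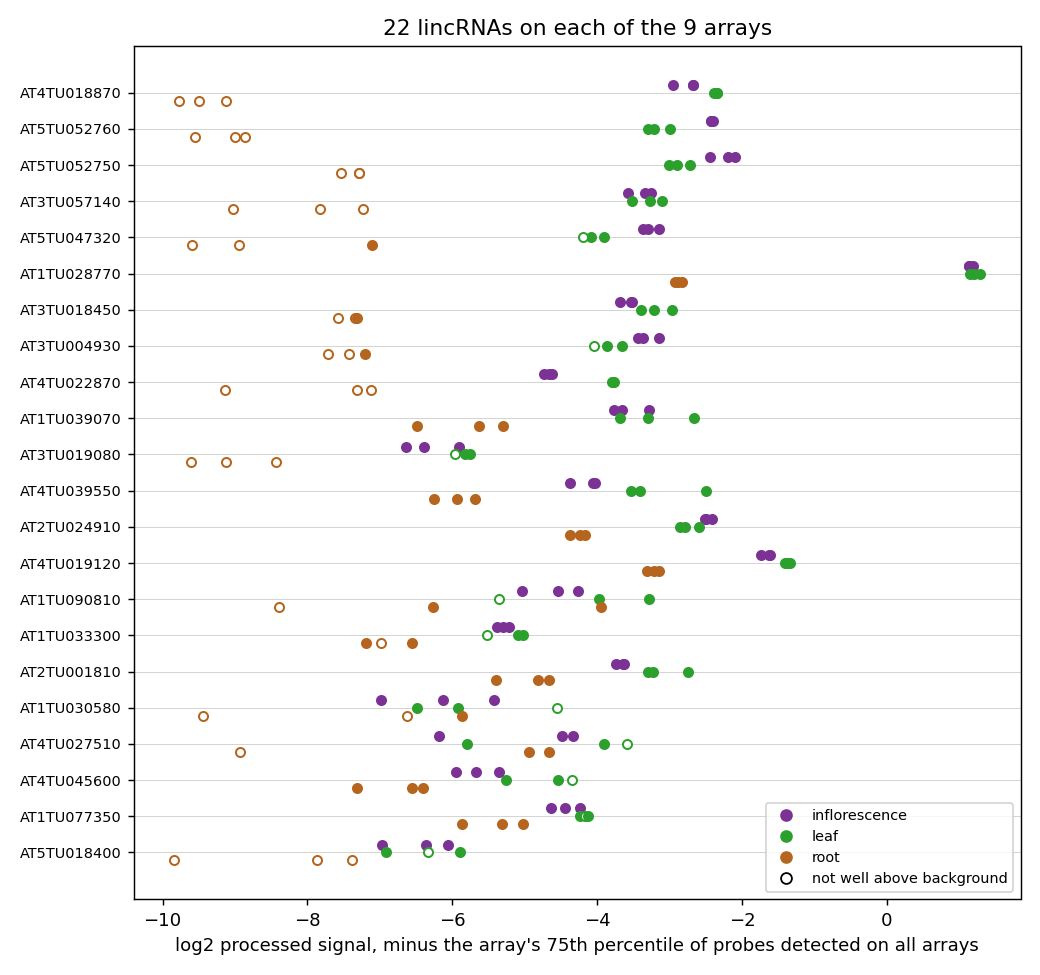
Scaled log2 signal (x axis) of the probe standing for each of the 22 lincRNAs on each array, ordered from the largest to the smallest of their smaller differences to root in the deposited table. Points are single arrays, coloured by organ, and open points were not well above background. All 6 shoot points lie right of all 3 root points for 19 lincRNAs.

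For 7 lincRNAs no root array gave a signal well above background, so that their difference to root has only a lower bound. The bound sets the shoot mean against a root floor, which on each root array is the dimmest signal still called well above background, or the probe's own signal if that is higher. It holds for the scaled signals only, and other processing gave smaller differences (see the dependence on processing below). AT4TU018870 on chromosome 4 comes first in the order used here, the smaller difference to root in the deposited table. Its signals were -2.68, -2.67 and -2.95 in inflorescence, -2.35, -2.35 and -2.39 in leaf and -9.13, -9.50 and -9.77 in root. The 6 shoot arrays lay within 1 unit of each other and far above all root arrays, and the leaf arrays differed by an SD of 0.02. The bounds for AT4TU018870 were at least 22.5-fold above root for inflorescence and at least 29.9-fold for leaf (measured means -2.77 ± 0.16, -2.36 ± 0.02 and -9.47 ± 0.32, SD, n = 3 arrays each).

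AT5TU052750 and AT5TU052760 carry successive numbers on chromosome 5. For AT5TU052750 the signals were -2.19, -2.09 and -2.44 in inflorescence, -2.72, -2.89 and -3.01 in leaf and -7.29, -7.29 and -7.53 in root. For AT5TU052760 they were -2.40, -2.43 and -2.43 in inflorescence, -3.30, -3.22 and -3.00 in leaf and -9.00, -8.86 and -9.55 in root. In both, every inflorescence array was above every leaf array, and every leaf array was above every root array. The bounds were at least 32.0-fold (inflorescence) and 20.7-fold (leaf) for AT5TU052750 and at least 28.7-fold and 17.0-fold for AT5TU052760.

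AT3TU057140 gave -3.25, -3.34 and -3.57 in inflorescence, -3.11, -3.52 and -3.27 in leaf and -7.23, -7.83 and -9.03 in root. Inflorescence and leaf overlapped, and it was at least 14.7-fold and 15.6-fold higher in them than in root. AT4TU022870 gave -4.67, -4.62 and -4.73 in inflorescence, -3.76, -3.80 and -3.78 in leaf and -7.31, -7.12 and -9.14 in root. Here each leaf array lay above each inflorescence array, and the bounds were at least 5.73-fold for inflorescence and 10.6-fold for leaf. AT4TU022870 was not well above background on leaf replicate 2, although its signal there was level with the other leaf arrays.

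The remaining 2 of these lincRNAs were dim in the shoot as well, and their bounds are small. Neither was well above background on leaf replicate 2, which enters the leaf mean, so their leaf bounds are not firm. AT3TU019080 ranged from -6.64 to -5.91 in inflorescence, from -5.96 to -5.76 in leaf and from -9.61 to -8.43 in root, at least 1.93-fold and 2.66-fold higher in the shoot organs. AT5TU018400 gave -6.36, -6.06 and -6.97 in inflorescence, -5.89, -6.33 and -6.91 in leaf and -7.87, -7.38 and -9.84 in root, at least 1.74-fold and 1.85-fold higher. On the scaled signals its shoot arrays stood 0.41 above its highest root array, a gap smaller than the SD of each of the 3 organs (0.46, 0.51 and 1.30). In the deposited table its leaf replicate 2, at 0.49, lay below root replicates 1 and 2 (1.37 and 1.75).

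A further 4 lincRNAs were well above background on 1 root array each, 3 of them with large differences. AT5TU047320 was at -3.14, -3.30 and -3.37 in inflorescence, -4.08, -4.19 and -3.91 in leaf and -8.95, -7.11 and -9.59 in root, with replicate 2 the root array that was detected. By means this is 38.7-fold for inflorescence and 22.5-fold for leaf, with a root SD of 1.29, and the root arrays were the ones that scattered. AT3TU018450 was at -3.52, -3.53 and -3.69 in inflorescence, -3.39, -2.96 and -3.22 in leaf and -7.34, -7.58 and -7.32 in root. Its root arrays agreed closely (SD 0.15), and its means were 14.3-fold and 18.7-fold above root. AT3TU004930 was at -3.14, -3.37 and -3.44 in inflorescence, -3.66, -4.04 and -3.86 in leaf and -7.71, -7.43 and -7.21 in root, 17.5-fold and 12.1-fold above root by means. For AT3TU018450 and AT3TU004930 the root array that was detected was replicate 3. As signals that are not well above background carry little information on the level, these folds are not exact.

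On all 3 root arrays 8 lincRNAs were measured. For 6 of them, well above background on all 9 arrays, the fold between organs is a measured one. AT4TU045600 and AT1TU077350 were not well above background on leaf replicate 2, so their leaf folds are not exact. AT1TU028770 on chromosome 1 was the steadiest. Its signals were 1.19, 1.13 and 1.13 in inflorescence, 1.15, 1.20 and 1.29 in leaf and -2.88, -2.83 and -2.93 in root. The inflorescence and leaf arrays overlapped, and the root arrays lay far below them with an SD of 0.05. Relative to root, AT1TU028770 was 16.3-fold higher in inflorescence and 17.1-fold in leaf (differences of 4.03 and 4.09).

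The other 7 measured on all root arrays had differences of 0.97 to 2.81. AT1TU039070 was at -3.29, -3.77 and -3.65 in inflorescence, -2.66, -3.30 and -3.68 in leaf and -5.30, -5.63 and -6.48 in root, 4.70-fold and 6.01-fold above root. AT4TU039550 was at -4.06, -4.38 and -4.03 in inflorescence, -3.53, -3.41 and -2.49 in leaf and -5.94, -5.68 and -6.25 in root, 3.48-fold and 7.02-fold above root. On the scaled signals its inflorescence and leaf means were 1.01 apart, just over the limit of 1 that it met in the deposited table. AT2TU024910 was at -2.42, -2.50 and -2.51 in inflorescence, -2.79, -2.85 and -2.59 in leaf and -4.24, -4.37 and -4.17 in root, 3.44-fold and 2.85-fold above root. AT4TU019120 was at -1.61, -1.63 and -1.74 in inflorescence, -1.38, -1.41 and -1.34 in leaf and -3.14, -3.22 and -3.31 in root, 2.95-fold and 3.59-fold above root. In AT2TU024910 and AT4TU019120 the SDs were 0.04 to 0.14, small beside the differences between organs.

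AT2TU001810 was at -3.64, -3.63 and -3.74 in inflorescence, -3.30, -3.23 and -2.75 in leaf and -4.81, -4.66 and -5.40 in root, 2.44-fold and 3.63-fold above root. AT4TU045600 was at -5.36, -5.67 and -5.95 in inflorescence, -4.54, -4.35 and -5.26 in leaf and -6.56, -6.40 and -7.32 in root, 2.14-fold and 4.13-fold above root. AT1TU077350 was at -4.63, -4.24 and -4.44 in inflorescence, -4.24, -4.17 and -4.12 in leaf and -5.32, -5.03 and -5.87 in root. Its inflorescence mean was 1.95-fold above root, short of 2-fold on the scaled signals, and its leaf mean 2.35-fold. The gaps between the lowest shoot array and the highest root array of AT4TU045600 and AT1TU077350 were 0.45 and 0.40, close to the root SDs of 0.49 and 0.42.

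The last 4 lincRNAs were measured on 1 or 2 root arrays, and in 3 of them shoot and root overlapped. AT1TU033300, detected on 2 root arrays, kept shoot and root apart on the scaled signals, with -5.30, -5.22 and -5.38 in inflorescence, -5.03, -5.52 and -5.09 in leaf and -6.99, -6.56 and -7.19 in root, 3.06-fold and 3.25-fold above root by means. In the deposited table its leaf replicate 2, not well above background, fell just below root replicate 3 (3.11 against 3.15). AT1TU090810 was at -4.26, -4.54 and -5.04 in inflorescence, -3.98, -5.36 and -3.29 in leaf and -6.26, -3.95 and -8.39 in root, so that root replicate 2 exceeded 5 of its 6 shoot arrays. AT1TU030580 was at -5.42, -6.13 and -6.99 in inflorescence, -5.92, -4.55 and -6.49 in leaf and -6.62, -5.87 and -9.44 in root. AT4TU027510 was at -4.33, -4.48 and -6.18 in inflorescence, -3.91, -3.59 and -5.80 in leaf and -4.66, -4.94 and -8.93 in root. In AT1TU090810, AT1TU030580 and AT4TU027510 root replicate 3, on slide 2, was far below the other root arrays, and the root SDs were 2.22, 1.88 and 2.39.

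On the scaled signals, all 6 shoot arrays lay above all 3 root arrays in 19 of 22 lincRNAs. The shares were 6.98% of the 1046 lincRNAs with the same detection and 5.02% of the 1612 lincRNAs tested. In the deposited table AT5TU018400, AT3TU019080 and AT1TU033300 overlapped as well, each through leaf replicate 2 alone. Their values there were 0.49, 1.81 and 3.11, against highest root values of 1.75, 2.08 and 3.15. They were not well above background on that array. Limma (adjusted p under 0.05, difference of 2-fold or more) called 17 of the 22 lower in root than in inflorescence and 18 lower in root than in leaf. Of all 2114 tested genes 10.8% and 10.2% were so called, and of the tested lincRNAs 7.69% and 6.64%. The rule used the same arrays and contrasts, which largely fixed these counts in advance. Nothing is therefore read from any of these shares, that of the separated shoot and root arrays included.

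The differences to root were present on both slides but were not of equal size. On slide 1, with 2 arrays per organ, inflorescence minus root ranged from 0.40 to 6.64 with a median of 1.89, and leaf minus root from 0.44 to 6.97 with a median of 2.41. On slide 2, with 1 array per organ, the ranges were 1.37 to 7.13 (median 2.85) and 1.58 to 7.38 (median 3.24). All 22 were above 0 on each slide, but at least 1 on slide 1 were 17 lincRNAs for inflorescence and 20 for leaf, and the difference was larger on slide 2 in 17 and 19 of the 22. The rule used the arrays of both slides, so values above 0 on each were largely given by the choice. The same counts were not taken for lincRNAs outside the set, so nothing is read from them. For AT1TU090810, slide 1 gave 0.71 (inflorescence) and 0.44 (leaf) and slide 2 gave 3.35 and 5.10. Slide 2 was the slide with the lower median signal, and its part in these differences was not tested. Without root replicate 3, 18 of the 22 still met the rule in the deposited table, and AT1TU090810, AT1TU030580, AT4TU027510 and AT5TU018400 did not.

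**Figure D3:**
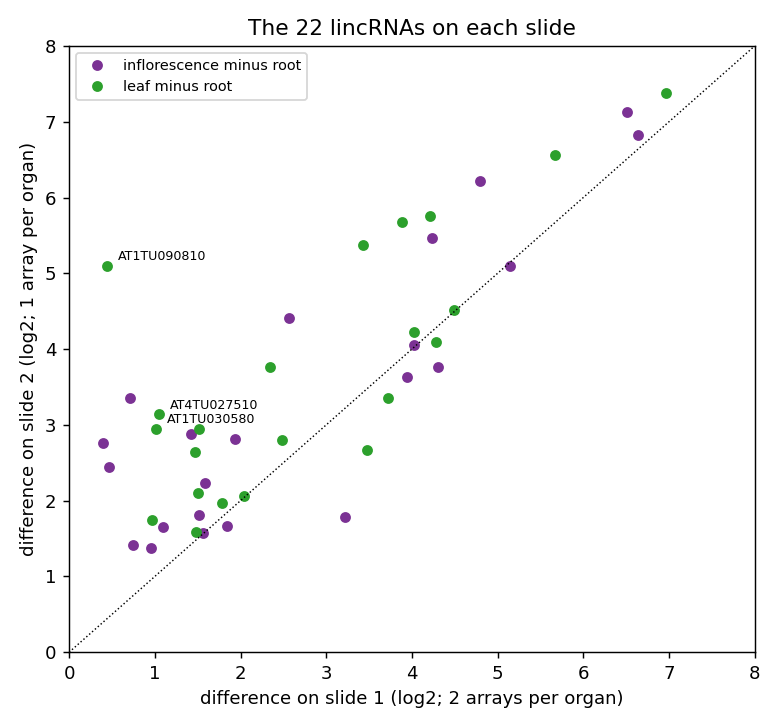
Difference between a shoot organ and root on slide 1 (x axis, 2 arrays per organ) and on slide 2 (y axis, 1 array per organ), log2 scaled signal, for the 22 lincRNAs in inflorescence (purple) and leaf (green). Points above the dotted line of equality are larger on slide 2, and the leaf difference of AT1TU090810 (0.44 on slide 1, 5.10 on slide 2) lies farthest from it.

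Each of the 22 lincRNAs had 3 probes, and the rule used 1 of them. The other 44 probes were hybridised to the same arrays and so are not independent replicates, and where on the transcript they lie is not known here. Of the 44, 17 were well above background on all 3 arrays of a shoot organ, and all 17 had a root mean below both shoot means. In 16 of the 17 the difference was at least 1 against both organs. The exception was a probe of AT4TU039550 with 0.33 for inflorescence and 1.47 for leaf. Asking for detection in the shoot favours probes with more signal there. It also leaves out 3 other probes, detected on all root arrays but on all 3 arrays of no shoot organ. The same share was not taken for lincRNAs outside the set, so nothing is read from these counts. Both other probes were detected in the shoot in 7 lincRNAs: AT5TU052760, AT3TU057140, AT1TU028770, AT3TU018450, AT3TU004930, AT2TU024910 and AT1TU090810. For AT3TU057140 the 3 probes gave nearly the same contrast, 4.39 to 4.80 for inflorescence and 4.56 to 4.83 for leaf. For AT1TU028770 they gave 3.25 to 4.03 and 3.28 to 4.09.

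Some probes within a lincRNA disagreed on the balance between the shoot organs. In AT5TU052760 the inflorescence difference was 5.63 to 6.72 over its 3 probes, while the leaf difference was 2.93, 3.95 and 5.97. The probe standing for AT2TU024910 gave inflorescence and leaf within 0.27 of each other, whereas another of its probes gave 3.61 for inflorescence and 1.56 for leaf. The evenness between inflorescence and leaf that the rule asked for thus held for the probe used but not for every probe of these 2 lincRNAs. In AT1TU090810, 1 of the 3 members whose shoot and root arrays overlapped, the other probes gave 3.08 and 1.86 for inflorescence and 3.20 and 2.13 for leaf. AT1TU030580 and AT4TU027510, which overlapped too, had no other probe detected on all 3 arrays of a shoot organ.

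In 2 lincRNAs another probe ran the opposite way. AT4TU045600 had a probe that was well above background on all 3 root arrays and on 1 shoot array, with means of -7.52 in inflorescence, -6.88 in leaf and -4.38 in root, a difference of -3.14 and -2.50 to root. AT4TU019120 had a probe with -9.02, -7.08 and -5.52, detected on all 3 root arrays and on 1 leaf array, with differences of -3.50 and -1.57, and its remaining probe, also detected on all 3 root arrays, gave -1.33 and 0.00. These lincRNAs are therefore low in root by 1 probe and high in root by another, and with all probes averaged the inflorescence difference was -1.09 for AT4TU019120 and -0.76 for AT4TU045600. For 12 of the 22, AT4TU019120 and AT4TU045600 included, no other probe was detected on all 3 arrays of a shoot organ. Among these was AT4TU018870, whose values rest on 1 probe.

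**Figure D4:**
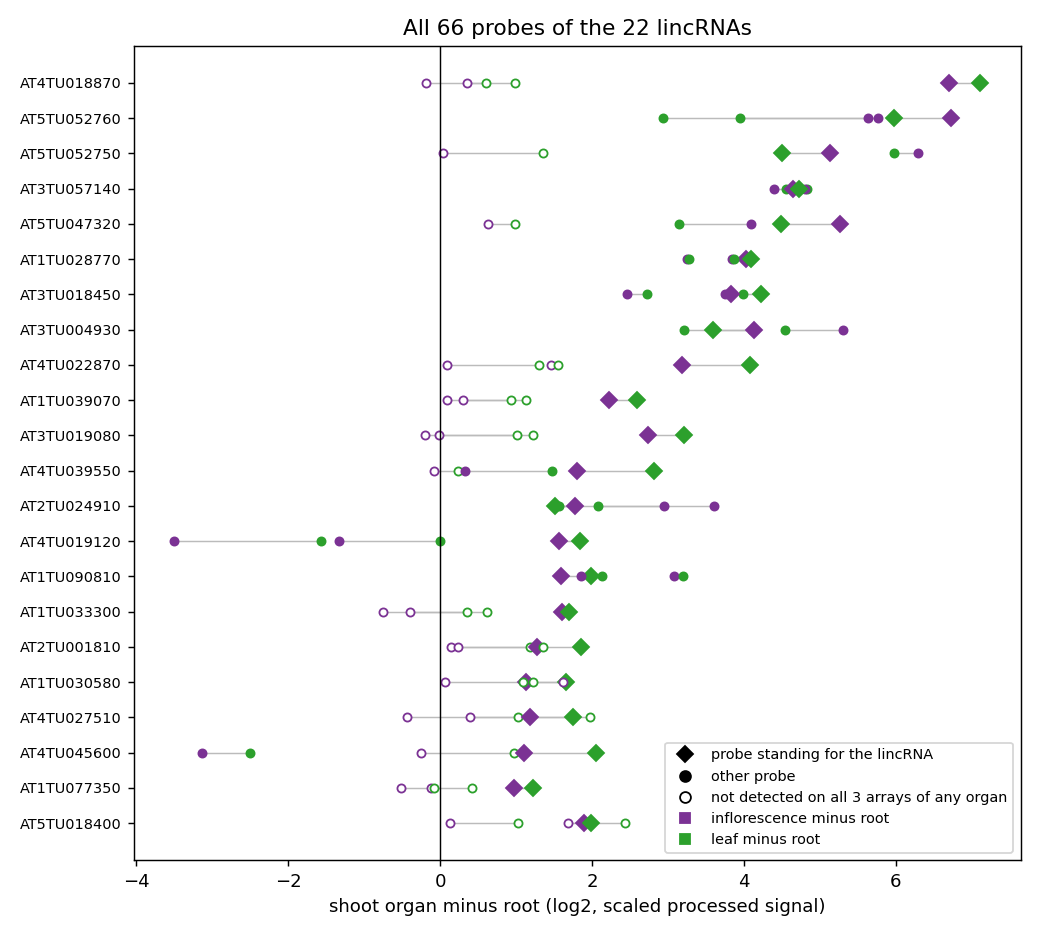
Shoot organ minus root (x axis, log2 scaled signal) for all 66 probes of the 22 lincRNAs, purple for inflorescence and green for leaf. Diamonds are the probes standing for the lincRNA, circles the others, and open circles were not detected on all 3 arrays of any organ. Filled circles lie left of 0 for AT4TU019120 and AT4TU045600.

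Within the limit of 1 set by the rule, the set still leaned in both directions between the shoot organs. On the scaled signals all 3 leaf arrays were above all 3 inflorescence arrays in 8 lincRNAs: AT4TU018870, AT3TU018450, AT4TU022870, AT4TU039550, AT4TU019120, AT2TU001810, AT4TU045600 and AT1TU077350. All 3 inflorescence arrays were above all 3 leaf arrays in 5: AT5TU052760, AT5TU052750, AT5TU047320, AT3TU004930 and AT2TU024910. Among the 1046 lincRNAs with the same detection these separations occurred in 21.8% and 12.7%. The remaining 9 overlapped. In the deposited table AT3TU018450, AT1TU077350 and AT2TU024910 overlapped instead, while AT1TU028770 and AT1TU039070 were separated with leaf higher. Of those separated on the scaled signals, AT4TU022870, AT4TU045600, AT1TU077350, AT5TU047320 and AT3TU004930 were not well above background on leaf replicate 2. By means 17 of the 22 were higher in leaf on the scaled signals and 14 in the deposited table, so the lean toward leaf depended on the scale. The median inflorescence minus leaf of the 22 was -0.32 on the scaled signals. The 1046 leaned the same way, with medians of -0.23 for inflorescence minus root and 0.04 for leaf minus root. Their share higher in leaf was not taken, so the lean is not read as a trait of the set. The largest differences were -1.01 (AT4TU039550) and -0.95 (AT4TU045600) toward leaf and 0.79 (AT5TU047320) and 0.75 (AT5TU052760) toward inflorescence, and -0.06 for AT1TU028770 was the smallest.

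The 22 lincRNAs lay on all 5 chromosomes, 6 on chromosome 1, 2 on chromosome 2, 4 on chromosome 3, 6 on chromosome 4 and 4 on chromosome 5. Chromosome 4 held 27.3% of them and 14.5% of the 1046 with the same detection, chromosome 2 9.09% and 19.9%. With 22 lincRNAs these are counts of a few and were not tested. For 5 of the 22 the probe name gives a start: AT5TU047320 at 13870369 and AT5TU018400 at 5209400 on chromosome 5, AT4TU022870 at 6934399 and AT4TU039550 at 11703337 on chromosome 4, and AT1TU030580 at 8852718 on chromosome 1. The array files name ath1:Jan2004 as the genome build of the grid but do not tie the starts to it, so the starts were not set against a gene annotation and no exon or neighbouring gene is stated. In the 930 lincRNAs with a start, numbers rose with position in all 925 successive pairs, so a number places a lincRNA without a start between its neighbours that have one.

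By this order AT5TU052750 and AT5TU052760 are next to each other on chromosome 5, between starts of 15531681 and 15633520, and they were the 1 pair of the set within 100 numbers. Their next neighbour, AT5TU052770, was not well above background on any array. AT1TU028770 falls between 8307274 and 8356999 on chromosome 1. AT4TU018870 and AT4TU019120 fall in the same stretch of chromosome 4, between 5353043 and 5715806, and AT3TU018450 and AT3TU019080 in the same stretch of chromosome 3, between 5142716 and 5678413. Both stretches hold other lincRNAs of the array between the members.

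Neighbours along the chromosomes were looked at in the same way. Leaving out the pair itself, the nearest lincRNA on either side gave 42 neighbours. Of these, 12 (28.6%) were well above background on all 3 arrays of a shoot organ, the same percentage as among all lincRNAs of the array (28.6%). None of the 12 was at least 1 above root in both shoot organs, and 2 were so in 1 organ. Among the 1046 lincRNAs with the rule's detection, a different requirement, 61 were so in both, and nothing is read from 12 neighbours. Of the remaining neighbours, not detected on all 3 arrays of either organ, AT3TU057270 (1.37 and 4.38 above root in inflorescence and leaf) and AT4TU027180 (1.67 and 2.10) reached that difference in both by their means, and AT4TU027690 and AT1TU090830 fell just short of it in inflorescence. These were picked after their values were seen. AT5TU047360, the next in order after AT5TU047320 with a start of 13879884, was detected on all 3 inflorescence arrays and on no leaf or root array, 2.62 above root in inflorescence and 0.21 in leaf. On the other side AT5TU047280 was detected in all organs at -0.11 and 0.61.

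The same rule applied to the other genes of the array was met by 18 of 264 annotated non-coding loci with the same detection (6.82%), 6 of 72 microRNA precursors (8.33%), 4 of 84 protein-coding genes (4.76%) and 1 of 4 loci without a match in the reference, against 22 of 1046 lincRNAs (2.10%). In order of the smaller difference in the deposited table the first 8 were the non-coding loci AT3G21755 and AT2G23672, PIL6, the non-coding locus AT5G06865, FUS3, the non-coding locus AT5G53048, PIF3 and the non-coding locus AT2G36792. PIL6 (also known as PIF5) and PIF3 encode basic helix-loop-helix factors that bind phytochrome and act in light responses, and FUS3 encodes a B3 factor of seed maturation. On the scaled signals AT2G23672 was 5.83 higher in inflorescence and 6.40 higher in leaf than in root, PIF3 3.60 and 4.01, and PIL6 5.38 and 6.64, the last with leaf 1.26 above inflorescence. AT3G21755 and AT2G36792 were well above background on 1 root array each.

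For setting, the coding genes of 3 fixed lists were tested in the same fit, in which 10.8% of the 2114 genes were called lower in root than in inflorescence and 10.2% lower in root than in leaf. Of 12 light signalling genes, 5 were lower in root against inflorescence and 5 against leaf, the same 5 in both, and 2 were higher in each. The 5 were the phytochrome-interacting factors PIF3, PIF4, PIL5 and PIL6, and HFR1, an atypical member of that family. PIF3 (limma adjusted p = 1.52e-06 against inflorescence and 7.95e-07 against leaf) and PIL6 (4.04e-07 and 1.37e-07) met the rule of the lincRNA set, while PIF4 (5.84 ± 0.18 and 9.09 ± 0.18, SE) and HFR1 (6.80 ± 0.17 and 2.90 ± 0.17) were uneven between the shoot organs, and HFR1 was well above background on 2 root arrays. The call of PIL5 against inflorescence (2.01 ± 0.14) was lost with arrays scaled to their own medians, and that of HFR1 against leaf after normexp correction with quantile normalization. Higher in root against inflorescence were LAF1 (-9.77 ± 0.78) and FHY1 (-1.29 ± 0.16), and against leaf LAF1 (-8.41 ± 0.78) and FHL (-2.20 ± 0.19). LAF1 was well above background on 3 root arrays and 0 shoot arrays, so its differences are not exact. The call of FHY1 was lost under 2 other scalings. HY5, PHYA, PHYB and COP1 were called in neither comparison. The median differences of the list were 0.59 and 0.12, against -0.26 and -0.04 over all tested genes.

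Of 10 genes of abscisic acid and cold or drought response, 5 were lower in root against both shoot organs and none met the rule of the lincRNA set. They were COR15A and COR15B, which encode cold-induced chloroplast proteins, LTI78, KIN1 and ABI5, the last a transcription factor through which abscisic acid acts in seeds. Their inflorescence and leaf means were all more than 1 apart, as in COR15A with 8.56 ± 0.18 against 11.81 ± 0.18 (SE) and ABI5 with 5.63 ± 0.18 against 1.48 ± 0.18, and the leaf call of ABI5 was lost under 2 other scalings of the arrays. Against leaf, LTI65 was also called lower in root (1.51 ± 0.39) and AFP1, an ABI5-binding protein, higher (-2.07 ± 0.15), the call of LTI65 being lost under at least 2 other scalings. The list's medians were 2.01 and 1.50. Of 7 circadian clock genes, CCA1 and LHY, the morning-phased MYB factors, were lower in root against both, with 7.25 ± 0.19 and 6.96 ± 0.14 for inflorescence and 2.54 ± 0.19 and 1.44 ± 0.14 for leaf, and no clock gene met the rule. In all, 3 clock genes were called lower and 1 higher in root against inflorescence, and 5 lower and 0 higher against leaf. PRR9 was lower in root against inflorescence (2.70 ± 0.14) but not called against leaf (-0.92 ± 0.14), and PRR3 was higher in root against inflorescence (-1.44 ± 0.14) and lower against leaf (1.58 ± 0.14). Both calls of PRR3 and the leaf calls of PRR5 and TOC1 were lost under at least 2 other scalings. The clock list's medians were 0.17 and 1.26, and the leaf call of CCA1 was lost under 1 other scaling of the arrays and that of LHY under 2.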

How the data were processed

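Total RNA of inflorescence, leaf and root was measured on 9 arrays, 3 per organ, grouped by the sample titles. Per the file headers, the authors' spot intensity values, with background subtracted and spatial trends removed, are from version 10.5.1.1 of Agilent Feature Extraction under protocol GE1_105_Dec08. The deposited value table holds log2 signals with a median of 1.41 in each column, and its columns correlated at 0.966 to 0.998 across probes with the scanner signals. The sources used here do not give how that scale was made. It served for the rule, since the rule names it, and as an alternative. All other values are log2 processed signals scaled to the 75th percentile of probes well above background on all arrays. Control spots, 71 outlier spots and probes for promoter constructs were left out, and saturation affected 0 gene spots.

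Genes whose probe was well above background on every array of some organ, 2114 in all, entered limma 3.58.1 in R 4.3.3 (organ means over all 9 arrays, Benjamini-Hochberg adjustment, adjusted p under 0.05 and at least 2-fold), a procedure tested on simulated data. Locus codes were named from the TAIR10.1 gene table, 400 of 405 matching. Same-numbered arrays deviated together (correlations of 0.13 to 0.63 across genes), so the replicate number was tried as a block. Normexp used the median spot signal because the files hold no mean spot signal. The named lincRNAs are all members, the nearest on each side of the threshold and some neighbours of members, and the other genes are those of fixed lists or the first 8 meeting the rule. Members, lists and tests were chosen with earlier results of these data known.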

Additional observations from a re-analysis of the deposited data

How the results depend on the processing

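The number of lincRNAs meeting the rule was 22. It was 4 with normexp correction (offset 50) and quantile normalization together, of which the separate parts were not tested for this count, 11 when detection on all 3 leaf arrays was asked for, 11 at a difference of at least 2, and 13 with the probes of a gene averaged, 9 of them among the 22. It was 20 to 25 with the scanner signals scaled in 3 ways, sharing 20, 21 and 13 with the set, the last with arrays scaled to their own medians. Leaving out 1 array gave 20 to 31, and slide 1 alone 24, with 16 shared. AT1TU028770 met the rule under all 17 of these alternatives, AT4TU018870, AT5TU052750, AT3TU057140 and AT3TU018450 under all but 1, and AT1TU077350 failed 10. Genes called in either direction numbered 520 for inflorescence against root and 506 for leaf against root. They were 227 and 247 with normexp and quantile normalization, 525 and 581 with quantile normalization alone, and 175 and 207 with detection asked for on all 9 arrays, where fewer genes are tested. Leaving out 1 array gave 418 to 544 and 423 to 560. The share of calls lower in root was 42.7% for leaf and 22.6% with arrays scaled to their own medians, which moved the median difference of the tested genes from -0.04 to -0.77, and 61.8% with detection on all 9 arrays. With slide as a block 635 and 653 genes were called. With the replicate number as a block 616 and 628 genes were called, and of the named genes AT5TU018400 gained a call against both shoot organs and AT4TU027510 against leaf, while the replicate block changed no other call of a named gene. Both are members, whose choice used these contrasts, so nothing is read from their calls. With all probes averaged, the inflorescence difference to root reversed to -1.09 for AT4TU019120 and -0.76 for AT4TU045600. With normexp and quantile normalization the inflorescence difference to root was 0.66 for AT4TU018870, 1.37 for AT5TU052760, 1.41 for AT5TU052750 and 0.94 for AT3TU057140. It was 0.42 for AT4TU022870, 0.18 for AT3TU019080 and 0.14 for AT5TU018400. All of these lie below the bounds given for the scaled signals, while AT1TU028770 kept 3.11. Dim signals limit the set: 7 members have only a lower bound in root, and 11 were not detected on leaf replicate 2, where their signals, from -6.33 to -3.59, lay from 1.72 below to 1.65 above the mean of the other leaf arrays.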

Other observations

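Of the 6 microRNA precursors that met the rule of the lincRNA set, 5 belong to the MIR156 and MIR157 family, whose microRNAs repress SPL transcription factors and mark the juvenile phase, and the other was ath-MIR393b. The family was singled out after its values were seen. On the array it has 12 precursors, 10 of them with the same detection, of which 5 met the rule, against 1 of the 62 other precursors with that detection. The 5 were ath-MIR157d (2.66 and 3.13 above root in inflorescence and leaf), ath-MIR156d (2.03 and 1.48), ath-MIR156c (1.63 and 1.21), ath-MIR157a (0.96 and 1.25) and ath-MIR156h (0.96 and 1.09). Replicate error was large for several: limma called 1 of the 11 tested family members lower in root against inflorescence, ath-MIR156c (adjusted p = 0.00414), and 4 against leaf, where 10.8% and 10.2% of all tested genes were called. ath-MIR157c was 4.13 above root in leaf and 1.69 in inflorescence, and ath-MIR156e was at -0.52 in inflorescence and 0.23 in leaf. In the same order ath-MIR156a was at 1.02 and -0.15. ath-MIR156b, detected on all inflorescence and root arrays but on 1 leaf array, was at -0.82 and -1.08. Of the 10 with the same detection, 8 had a root mean below both shoot means. Precursors of this family resemble each other, and how far their probes bind each other's RNA was not tested.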
